A study of Mus musculus with 4 samples.

Results

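The 9 genes described here are transcription regulators that act on the choice between the granulocyte and the monocyte or macrophage fate in myeloid cells: Spi1, Gfi1, Egr1, Egr2, Id1, Id2, Jun, Fos and Nr4a1. They were chosen by name from the 21506 genes of the deposited tables, with the longest transcript kept for each gene. Of these, 8 were found under the listed symbol, and Spi1 was found through its RefSeq accession under the older symbol Sfpi1. Messenger RNA was sequenced from 32Dclone3, an immortalised mouse myeloid line grown in serum with WEHI medium as its source of interleukin-3. The control group carried the XZ virus and the other group carried XZ-miR-125b, a virus that adds miR-125b, a miRNA abundant in blood stem cells. Both groups were stably infected, with different virus supernatants for the 2 infections of a condition, which gave 2 libraries per group. All cells therefore carried a viral vector, were kept with interleukin-3 throughout and came from 1 line. A p-value here measures only the spread between these cultures.

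PU.1, the product of Spi1, is an ETS-family factor needed for all myeloid cells, and high PU.1 favours macrophages. Gfi1 is a zinc-finger repressor that favours granulocytes, while Egr1 and Egr2, acting with Nab proteins, oppose Gfi1 and favour macrophages. Id proteins lack a DNA-binding region and hold E proteins away from DNA. Jun and Fos form the AP-1 dimer, and Nr4a1 is an orphan nuclear receptor. The genes of Egr1, Egr2, Fos, Jun and Nr4a1 belong to the immediate-early genes, which are transcribed within minutes of a growth-factor signal without new protein synthesis.

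The miRNA is shown first, because its seed (bases 2 to 8, in capitals) sets which messenger RNAs it pairs with. Below it is the only stretch among the 9 annotated 3′ untranslated regions with TCAGGG (in capitals). This is the 6-base match to the seed without base 8. The mature sequence is that of RefSeq (GRCm38.p6, chr9:41581940-41581961, plus strand). The stretch from Jun is from GENCODE M21 (GRCm38, chr4:95050237-95050266, minus strand), and its match starts 11 bases after the stop codon.
miR-125b: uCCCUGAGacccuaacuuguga
Jun: gaacagactgTCAGGGctgaggggcaatgg
The untranslated regions of the 9 genes were between 362 and 1233 bases long, against a median of 1331 over tested genes. A match to bases 2 to 8 (CTCAGGG) was in 0 of the 9, and in 17.0% of the 9935 tested genes with an annotated region. TCAGGG was in 1 of the 9 and in 38.9% of those genes. Other 6-base matches within the seed were not searched.

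Promoter windows (250 bases before to 50 after the start, RefSeq, GRCm38.p6) were searched for 6 of the 9 genes. These were Gfi1, Egr2, Id2, Jun, Fos and Nr4a1. Windows of Spi1, Egr1 and Id1 were left out of this search, so it cannot show whether they hold these motifs. Those of Fos and Egr2 are shown, the only windows here that held a motif marked in capitals. Both genes were highest in control replicate 2, as were Gfi1, Jun and Nr4a1, whose windows held no such motif. Capitals mark TGACGT, the core of the cAMP response element, on either strand, and the CArG box, the site of serum response factor. The Fos window lies at chr12:85473640-85473939 and the Egr2 window at chr10:67537619-67537918, both on the plus strand.
Fos: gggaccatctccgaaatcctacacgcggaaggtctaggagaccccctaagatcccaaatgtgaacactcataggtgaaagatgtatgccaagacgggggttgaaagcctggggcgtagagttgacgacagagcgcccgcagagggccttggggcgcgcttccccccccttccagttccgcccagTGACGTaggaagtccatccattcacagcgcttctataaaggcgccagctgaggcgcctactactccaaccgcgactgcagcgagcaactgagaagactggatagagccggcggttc
Egr2: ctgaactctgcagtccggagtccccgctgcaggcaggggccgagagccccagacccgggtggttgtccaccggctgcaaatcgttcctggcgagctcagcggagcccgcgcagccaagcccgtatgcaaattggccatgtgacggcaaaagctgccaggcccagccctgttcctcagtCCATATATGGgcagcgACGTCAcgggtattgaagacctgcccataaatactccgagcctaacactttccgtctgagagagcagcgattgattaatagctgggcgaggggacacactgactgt
TGACGT was found 66 to 61 bases before the start of Fos and, on the other strand, 56 to 51 bases before that of Egr2, and in 7.51% of 32817 windows of the same length. A CArG box lay 72 to 63 bases before the start of Egr2 and was present in 1.63% of windows. The other 4 windows held neither, and TGANTCA, the AP-1 site, was in none of the 6 (7.81% of all windows). GAGGAA, the core of the PU.1 site, lay 81 to 76 bases before the start of Egr2 on the other strand (28.3% of windows). GCGNGGGCG, the EGR site, lay 60 to 52 bases before that of Nr4a1 on the other strand (5.56% of windows). These are matches of letters and were not tested for binding. Sequence more than 250 bases before a start was not searched, so the absence of a match covers these windows only.

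The libraries held between 10.4 and 12.6 M reads over all rows, and 1 read on a transcript of 1 kb was worth 0.0792 to 0.0964 RPKM (reads scaled to 1 kb of exon and 1 M reads). The hairpin of Mir125b-1 had 0 reads in both control libraries and 4 in each miR-125b library. Of the myeloid progenitor markers, Ptprc (between 42.4 and 57.3 RPKM) and Myb (between 108.3 and 124.3 RPKM) were present, while Kit and Cd34 stayed at or below 0.181 RPKM. The 6 lymphoid markers summed to between 0.145 and 0.392 RPKM. Control replicate 2 had a score of 34.1 on the leading principal component (57.8% of the variance), where the other 3 libraries lay between -22.1 and 0.223. Across genes, its difference from control replicate 1 was larger for transcripts of higher GC content (Spearman's rho 0.476, a description over genes that are not independent). Fewer cells of a type and less RNA per cell cannot be told apart in such bulk libraries.

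The 9 regulators covered a wide range of levels per length. Averaged over the 4 libraries, Id1 (98.4 RPKM) and Spi1 (89.9 RPKM) were the most abundant, and their ranges overlapped. Gfi1 followed at 18.8 RPKM, and its lowest library (9.64 RPKM) was above the highest of Id2 (8.85 RPKM). Id2 averaged 6.56 RPKM, Fos 6.51 RPKM, Jun 2.81 RPKM, Egr2 1.25 RPKM and Egr1 0.731 RPKM, and neighbours in this order overlapped. Nr4a1 was at 0 reads in 3 libraries and 2 reads in control replicate 2, where 3 reads would amount to 0.117 RPKM, so its level could not be compared.

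For no regulator did the difference between the groups pass the test against the spread of the libraries. A gene was tested if it reached 1 RPKM in at least 2 libraries, which held for 6 of the 9 and for 10310 genes in all, and Egr1, Egr2 and Nr4a1 did not pass this filter. In limma's moderated test with Benjamini-Hochberg adjustment, 0 of the 6 were called at an adjusted p under 0.05, as were 0% of all genes. At an unadjusted p under 0.05 there were again 0 of the 6, where 5.21% of all tested genes were lower with miR-125b and 4.17% higher (967 genes together). The groups did not overlap for 1 of the 6, Spi1, which was lower, and this held for 20.4% of all tested genes in that direction and 22.3% in the other. All 6 fold changes were below 0, as were 47.2% of those of all tested genes, although that of Jun turned to 0.0012 after a correction for GC content. The median of the 6 was -0.31 on the log2(RPKM + 1) scale against 0.024 over all tested genes. Without control replicate 2 the median of the 6 was 0.072, and again 0 of the 6 had an unadjusted p under 0.05, where 5.46% of all genes tested were lower and 6.04% higher.

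**Figure D1:**
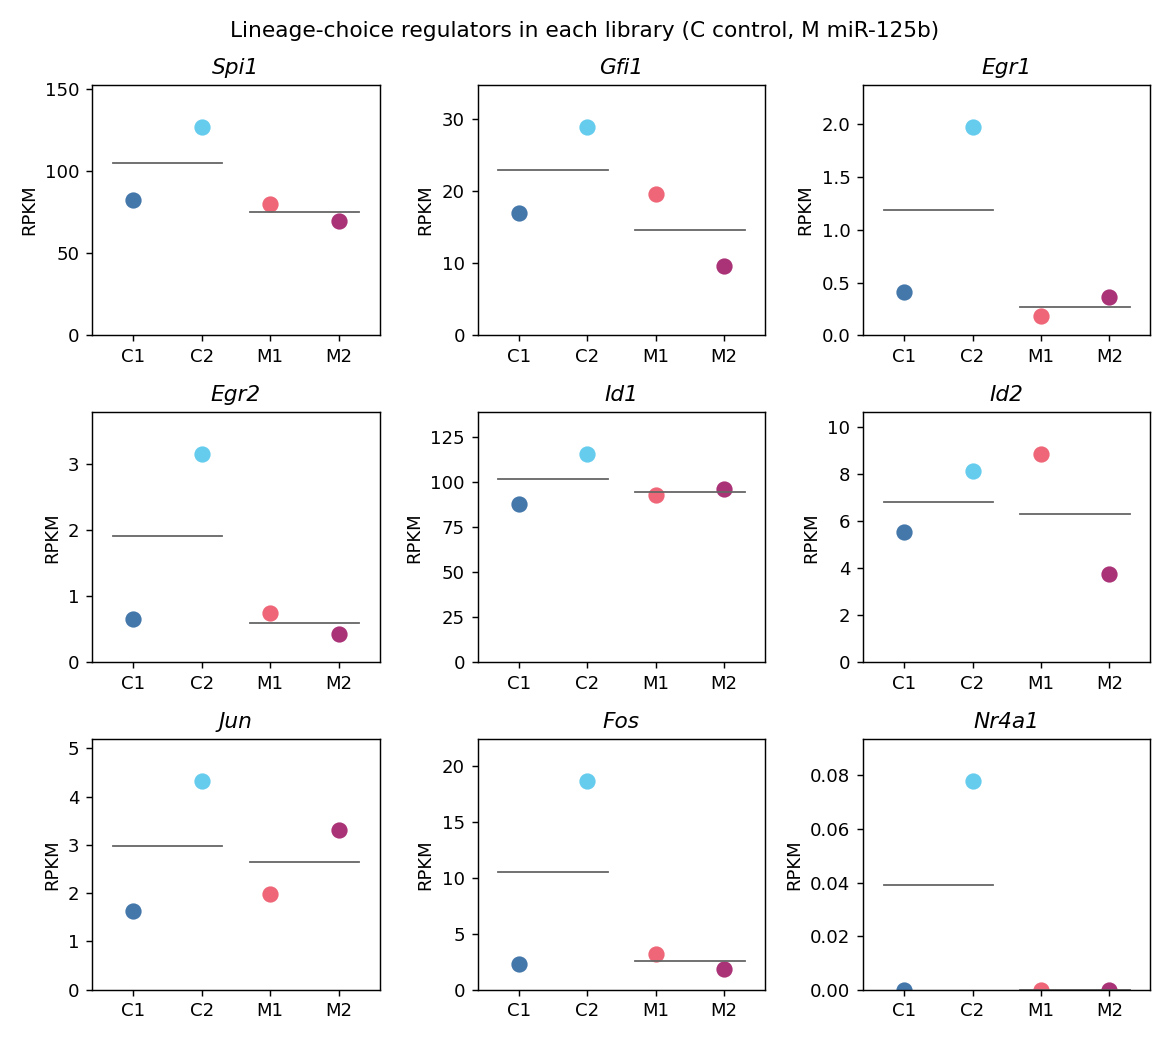
RPKM of each of the 9 regulators (y axis, from 0, own scale per panel) in control replicates 1 and 2 (C1, C2) and miR-125b replicates 1 and 2 (M1, M2), with a line at each group's mean. Control replicate 2 is the highest library for every gene except Id2, whose highest is miR-125b replicate 1 at 8.85 RPKM.

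Spi1 (chromosome 2, 90936954 to 90955913 in mm9, 5 exons) measured 82.6 RPKM in control replicate 1 and 127.2 RPKM in control replicate 2, against 80.3 and 69.6 RPKM under miR-125b. The lowest control and the highest miR-125b library lay close together, and control replicate 2 was above the other 3. The means were 104.9 ± 31.5 RPKM and 74.9 ± 7.60 RPKM (SD, n = 2 each), a log2 fold change of -0.45 ± 0.26 (SE) with a 95% interval from -1.06 to 0.16 (limma, adjusted p = 0.608). Without control replicate 2 it was -0.14, without control replicate 1 it was -0.76 (adjusted p = 0.0758), and with quantile normalization the groups overlapped.

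Gfi1 (chromosome 5, 108145674 to 108153363, 6 exons) measured 16.9 and 28.9 RPKM among the controls, against 19.6 and 9.64 RPKM under miR-125b. The groups overlapped, since miR-125b replicate 1 lay between the controls. The log2 fold change was -0.64 ± 0.37 (SE, 95% interval -1.54 to 0.25, limma adjusted p = 0.610). Leaving out miR-125b replicate 2 gave -0.17 and leaving out control replicate 2 gave -0.27. Without miR-125b replicate 1 it was -1.12, and without control replicate 1 it was -1.01, so that each of the 4 libraries moved it by more than 1.5 times.

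The Id genes had fold changes near 0, with wide intervals. Id1 (chromosome 2, 152562010 to 152563146, 2 exons) measured 88.2 and 115.8 RPKM among the controls, against 93.1 and 96.5 RPKM under miR-125b, both between the controls. Its log2 fold change of -0.092 ± 0.21 (SE) had a 95% interval from -0.60 to 0.42 (limma adjusted p = 0.893). Id2 (chromosome 12, 25778664 to 25780957, 3 exons) measured 5.53 and 8.11 RPKM among the controls, against 8.85 and 3.75 RPKM under miR-125b. Here the miR-125b libraries were the highest and the lowest of the 4, on 142 and 56 reads. The log2 fold change was -0.17 ± 0.36 (SE, 95% interval -1.04 to 0.69, limma adjusted p = 0.878), which became 0.35 when miR-125b replicate 2 was left out and -0.70 when replicate 1 was.

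Gfi1 and Id2 were the regulators with the widest gap within the miR-125b group. By reads per total, miR-125b replicate 2 was at 0.491 times replicate 1 for Gfi1 (95% exact interval 0.429 to 0.561) and at 0.424 times for Id2 (0.306 to 0.582). Such intervals cover counting error only and compare 2 libraries. A drop this large or larger between these libraries on the log2(RPKM + 1) scale was seen in 1.15% of tested genes for Gfi1 and 0.970% for Id2.

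Fos (chromosome 12, 86814851 to 86818219, 4 exons) had the largest fold change of the 6 tested regulators, and it rested on 1 library. It was at 2.30 RPKM in control replicate 1, 18.6 RPKM in control replicate 2, 3.22 RPKM in miR-125b replicate 1 and 1.87 RPKM in miR-125b replicate 2. Control replicate 1 lay between the miR-125b libraries, so the groups overlapped. The log2 fold change was -1.21 ± 0.75 (SE, 95% interval -2.99 to 0.57, limma adjusted p = 0.623). It was 0.078 without control replicate 2 and -2.50 without control replicate 1 (adjusted p = 0.0710). Between the controls, Fos had 54 and 405 reads, a ratio per total of 8.12 (95% exact interval 6.10 to 11), and 0.0582% of tested genes had a difference in that direction as large on the log2(RPKM + 1) scale.

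Jun (chromosome 4, 94715727 to 94718913, 1 exon) measured 1.62 and 4.32 RPKM among the controls, and the miR-125b libraries lay between them at 1.99 and 3.32 RPKM. Its log2 fold change was -0.057 ± 0.37 (SE, 95% interval -0.94 to 0.83, limma adjusted p = 0.960) and 0.45 without control replicate 2. Jun had 58 and 143 reads in the controls, a ratio per total of 2.67 (1.95 to 3.69).

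The EGR genes were low and showed the same standing of control replicate 2. Egr1 (chromosome 18, 35020861 to 35024610, 2 exons) held 14 and 63 reads in the controls and 7 and 13 reads with miR-125b, or 0.406, 1.98, 0.181 and 0.361 RPKM in that order. Its groups did not overlap, but 13 and 14 reads are within counting error of each other. Egr2 (chromosome 10, 67000617 to 67004936, 2 exons) held 22 and 97 reads in the controls and 28 and 15 with miR-125b, or 0.661, 3.15, 0.748 and 0.431 RPKM, with control replicate 1 between the miR-125b libraries. The ratio of control replicate 2 to control replicate 1 was 4.87 for Egr1 (95% exact interval 2.70 to 9.41) and 4.77 for Egr2 (2.98 to 7.96). Fitted without a filter on low values, the log2 fold changes were -0.69 ± 0.47 (SE) and -0.73 ± 0.59, each at an adjusted p of 0.952.

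**Figure D2:**
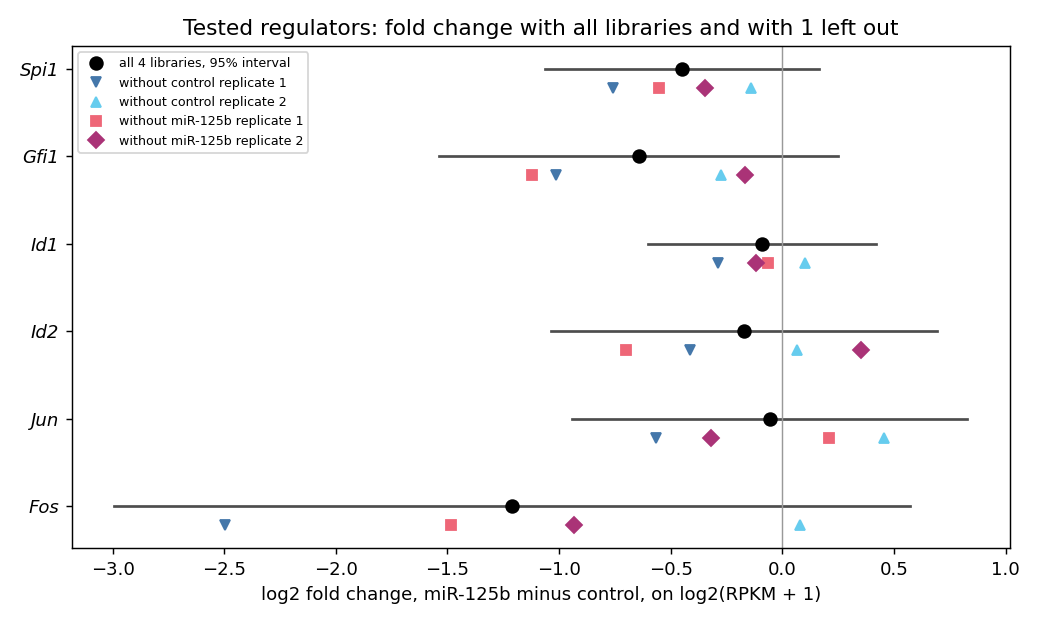
Log2 fold change of miR-125b against control on log2(RPKM + 1) (x axis) for the 6 tested regulators, with all 4 libraries (black, bars 95% interval) and with each library left out (coloured). Every interval crosses 0, and Fos moves from -2.50 to 0.078 depending on which control library is left out.

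Other genes of the same families were read from lists, in the same fit. In it, 5.21% of all tested genes were lower and 4.17% higher at an unadjusted p under 0.05. Of 11 tested relatives of Jun and Fos among 15 listed, 4 were lower and 1 was higher at an unadjusted p under 0.05, and 0 passed over all genes. Junb, an AP-1 partner that can restrain Jun, measured 23.8 and 66.2 RPKM among the controls against 18.5 and 17.1 RPKM under miR-125b. Jund measured 42.5 and 80.5 RPKM against 29.8 and 30.2 RPKM. In both, each miR-125b library was below each control and control replicate 2 was above the rest. The small Maf gene Mafk was lower (log2 fold change -0.71 ± 0.27, SE) and Maff higher (0.69 ± 0.21), with limma adjusted p of 0.505 and 0.464. Without control replicate 2, the fold change was -0.33 for Mafk, -0.40 for Junb and -0.49 for Jund, and without control replicate 1 it was -1.09 for Mafk and -1.84 for Junb. The median of the 11 was -0.46, and -0.18 without control replicate 2. Fosb, which did not pass the filter and was named after its values were seen, was at 0.354, 5.82, 0.420 and 0.203 RPKM in control replicates 1 and 2 and miR-125b replicates 1 and 2.

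Among the lists, the other immediate-early genes had the lowest median fold change. Of 18 listed, 13 were tested, of which 6 were lower and 0 higher at an unadjusted p under 0.05. For 10 of the 13 the groups did not overlap with miR-125b lower. Over all tested genes, 5.21% were lower and 4.17% higher at that p, and 20.4% did not overlap with miR-125b lower. None of the 13 passed over all genes. Ier2 measured 41.4 and 113.1 RPKM among the controls against 29.6 and 24.6 RPKM under miR-125b. Ier5 measured 20.6 and 38.1 RPKM against 14.0 and 16.0 RPKM, and Zfp36, which encodes the RNA-decay protein tristetraprolin, 9.54 and 15.7 RPKM against 7.23 and 5.26 RPKM. In all 3 genes each miR-125b library was below each control, with the higher control in replicate 2. Leaving out that library took Ier2 from -1.31 to -0.60, Ier5 from -0.87 to -0.44 and Zfp36 from -0.89 to -0.55 in log2 fold change. Plk3, a polo-like kinase gene, had a log2 fold change of -0.63 ± 0.24 (SE, limma adjusted p = 0.505).

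Control replicate 2 was the highest library for 11 of these 13 genes, for 7 of the 11 AP-1 relatives and for 5 of the 6 tested regulators, compared with 31.9% of all tested genes. The median log2 fold change of the 13 was -0.77 with all libraries, -0.32 without control replicate 2 and -1.26 without control replicate 1. Without control replicate 2, 12 were tested. Ier3, named after its values were seen, measured 18.4 and 56.9 RPKM among the controls against 34.1 and 43.8 RPKM under miR-125b. The tested genes of this list had a median GC content of 54.9%, those of the AP-1 list 57.2%, and all tested genes 50.4%. After a correction for GC content the median of the 13 was -0.69 and the fold change of Fos -1.21. Of the heat shock list, Dnajb1 ran from 26.8 to 31.7 RPKM, and Hsph1 was lowest in control replicate 2 at 40.3 RPKM.

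**Figure D3:**
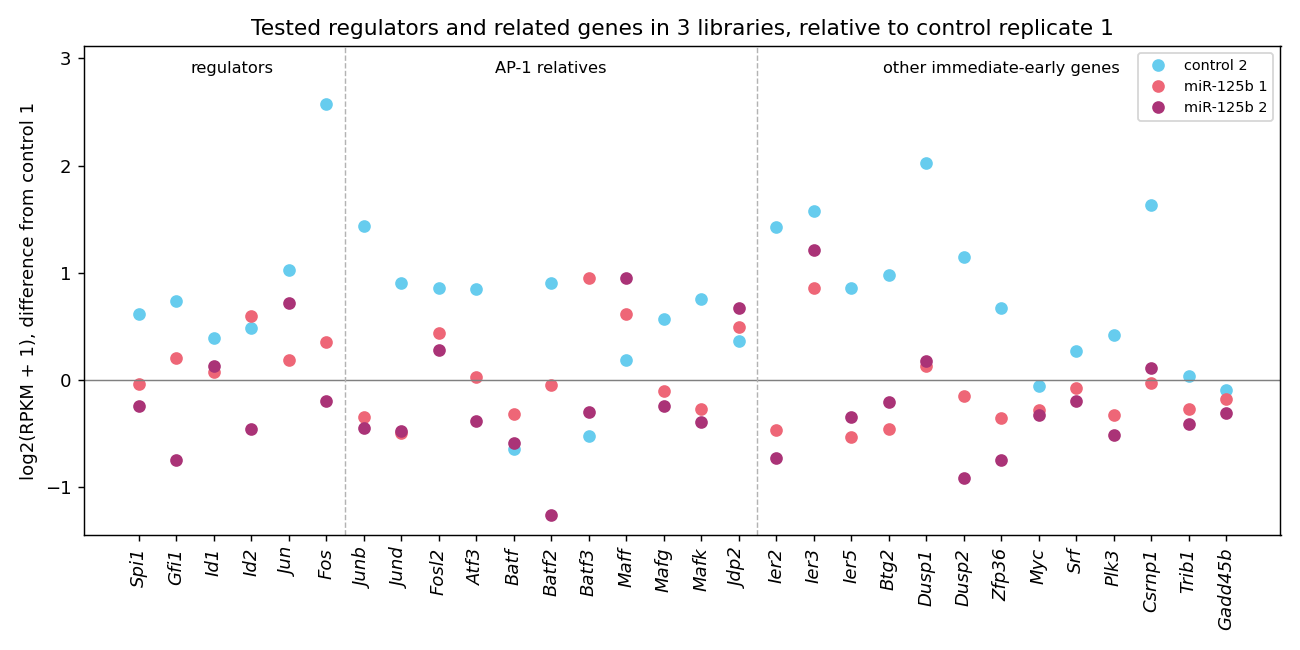
Difference of log2(RPKM + 1) from control replicate 1 (y axis) in control replicate 2 and both miR-125b libraries, for the tested regulators, AP-1 relatives and other immediate-early genes (x axis). Control replicate 2 is the highest library for 5 of the 6 regulators, 7 of the 11 AP-1 relatives and 11 of the 13 immediate-early genes, with Fos at 2.57.

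Partners of the EGR and Id proteins had smaller fold changes. Nab2, the corepressor that works with Egr1 and Egr2, measured 14.2 and 17.0 RPKM among the controls against 16.1 and 15.5 RPKM under miR-125b. Nab1 measured 9.17 and 7.54 RPKM against 12.3 and 11.5 RPKM (log2 fold change 0.47 ± 0.18, SE, limma adjusted p = 0.509). It was the 1 of 4 tested genes in that list with an unadjusted p under 0.05. Over all tested genes, 5.21% were lower and 4.17% higher at that p. Of the E protein genes, Tcf3 had a log2 fold change of -0.21 ± 0.18, Tcf4 of 0.21 ± 0.18 and Tcf12 of 0.41 ± 0.23, and 0 of the 3 reached that threshold. Tcf12 moved to 0.17 without miR-125b replicate 2 and to 0.65 without miR-125b replicate 1, and Tcf3 to -0.14 without the latter. Of the untested relatives, named after their values were seen, Id3 had 0 reads in 3 libraries and 1 read in control replicate 1, and Id4 had 0 reads in all 4.

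Among ETS relatives of PU.1, 2 of 11 tested genes were lower at an unadjusted p under 0.05 and 0 were higher. Over all tested genes the shares were 5.21% and 4.17%. Etv6, a repressor gene often rearranged in leukaemia, measured 16.5 and 21.3 RPKM among the controls against 12.4 and 10.7 RPKM under miR-125b, and Etv3 had a log2 fold change of -0.52 ± 0.19 (SE). Limma's adjusted p was 0.464 for Etv6 and 0.505 for Etv3. Leaving out control replicate 2 took Etv6 from -0.66 to -0.49 and Etv3 from -0.52 to -0.36 in log2 fold change. The PU.1 relatives Spib and Spic were also named after their values were seen, and Spib had at most 0.0639 RPKM and Spic 0 in all 4 libraries.

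Genes known to depend on PU.1 had fold changes on both sides of 0. Of 12 tested, 2 were lower and 1 was higher at an unadjusted p under 0.05 (5.21% and 4.17% of all tested genes). The median log2 fold change of the 12 was -0.044. Lyz2, a lysozyme gene whose near-identical copy Lyz1 makes its value uncertain, was lower (-1.25 ± 0.20, SE, limma adjusted p = 0.249), as was the interleukin-3 receptor beta gene Csf2rb (-0.63 ± 0.24), which has the close copy Csf2rb2. Csf2rb measured 33.8 and 50.1 RPKM in miR-125b replicates 1 and 2 against 69.3 and 59.9 RPKM among the controls, and without miR-125b replicate 1 its fold change was -0.36. The Fc receptor gene Fcgr3 was higher, at 11.4 and 5.61 RPKM against 3.62 and 3.06 RPKM among the controls, a log2 fold change of 1.06 ± 0.31 (SE) that was 0.61 without miR-125b replicate 1. Without control replicate 2, 11 of these genes were tested, with a median log2 fold change of 0.033.

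Gfi1 silences genes such as those of macrophage growth factor and of cell-cycle arrest. Of 6 genes listed as reported targets of its repression, 4 were tested. Of these 1, the cell-cycle inhibitor gene Cdkn1a, was lower at an unadjusted p under 0.05 (log2 fold change -0.70 ± 0.25, SE), and it did not pass over all genes. Over all tested genes, 5.21% were lower and 4.17% higher at that p. Without control replicate 2 the fold change of Cdkn1a was -0.41. Csf1, which encodes macrophage colony-stimulating factor, measured 14.7 and 29.7 RPKM among the controls against 31.1 and 10.5 RPKM under miR-125b. Its lowest library was miR-125b replicate 2, which was also the lowest for Gfi1, Id2, Spi1, Fos and Egr2. Of 7 tested partners of Gfi1, 0 had an unadjusted p under 0.05, beside the same 5.21% and 4.17% of all tested genes.

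The genes whose profile over the 4 libraries lay nearest to a regulator were sought for Fos and Gfi1, the largest fold changes among regulators at a mean of 5 RPKM or more, over 8073 genes at that level. Nearest to Fos by Euclidean distance of centred log2(RPKM + 1) were Ifi27l2a (0.326), Trpt1 (0.354) and Isg20 (0.473). Ifi27l2a measured 22.8 and 112.9 RPKM among the controls against 21.8 and 18.1 RPKM under miR-125b. Nearest to Gfi1 were 2310039H08Rik (0.109), Trim21 (0.109) and Daxx (0.119), of which Daxx measured 26.1 and 42.3 RPKM among the controls against 27.8 and 15.5 RPKM under miR-125b.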

How the data were processed

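For each library the authors deposited 26982 transcript rows in RPKM. The build was mm9, as the submitters' processing notes name it, while the aligner and counter were not given in the sources used here. Values times exon length came out as whole reads (within 0.001) for 100% of rows, from which the reads per row were taken. Reads shared by near-identical copies and overlapping genes are uncertain, and no source used here says whether strand was used. The longest row was kept for each gene, and start positions are given 1-based.

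Titles gave each library its group and number. The test was limma 3.58.1 (R 4.3.3) on log2(RPKM + 1), with the group as only term and a trended prior. Its 2-sided p-values were adjusted over 10310 genes, on 2 residual degrees of freedom. It was tested on simulated data without a library or GC effect. Those data cannot show how it behaves with a library like control replicate 2. Fold changes on this scale understate changes of low genes. The members and the gene lists were chosen with earlier results of these data known. The 9 members are described in full, and of each list at most the 4 tested genes with the smallest p are named. Marker genes are given by list, and any other gene named was chosen after its values were seen.

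Reads behind a ratio of 2 libraries have exact (Clopper-Pearson) 95% intervals, which cover counting error only. Seed matches were searched in the longest 3′ untranslated region of each gene in GENCODE M21, and motifs on both strands of RefSeq windows. TGACGT also lies within TGACGTCA, the full element, which was in 1.79% of windows and in none of the 6. GC content came from GENCODE transcripts for 99.0% of genes. Alternatives were other pseudocounts, filters, scalings and rows per gene, limma-voom on the recovered reads, GC correction, a replicate block and leaving out each library.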

Additional observations from a re-analysis of the deposited data

How the results depend on the processing

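Over 15 alternatives, 0 of the 6 tested regulators was called in any, and the smallest adjusted p was 0.0710 (Fos without control replicate 1). In 81 of 89 fits of a regulator its direction was kept. Jun turned to 0.0012 with GC correction, with or without the replicate block. With 1 library left out, where the lone library of a group is assumed to vary like the others, log2 fold changes ran from -0.76 to -0.14 for Spi1, -1.12 to -0.17 for Gfi1, -0.29 to 0.10 for Id1, -0.70 to 0.35 for Id2, -0.57 to 0.45 for Jun and -2.50 to 0.078 for Fos. Leaving out control replicate 2 turned Id1 (0.10), Id2 (0.067), Jun (0.45) and Fos (0.078), leaving out miR-125b replicate 2 turned Id2 (0.35), and leaving out miR-125b replicate 1 turned Jun (0.21).

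The count of regulators at an unadjusted p under 0.05 ran from 0 to 3 with 1 library left out (3 without control replicate 1, where 29.5% of all tested genes had such a p, and 2 without miR-125b replicate 1, where 6.52% had). The count of regulators whose groups did not overlap ran from 2 to 5, with an arm of 1 library in each case. It was 5 without control replicate 1 (83.8% of all genes), 3 without control replicate 2 (75.3%), 4 without the first miR-125b library (65.1%) and 2 without the second one (61.2%). That count was 0 with quantile normalization. The count called over all genes was 137 without a filter on low values, 12 with the replicate block, 0 with limma-voom (994 at an unadjusted p under 0.05), and from 0 to 108 with 1 library left out (108 without miR-125b replicate 1). The cause was not tested. The titles do not say whether same-numbered libraries were infected or handled together. Deviations of same-numbered libraries correlated at 0.021, which rests on 1 difference per group and cannot show whether they were paired. With the replicate block no regulator was called. A difference in Nr4a1, at 0 to 2 reads, was not detectable at this depth.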

Other observations

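Of 4 granule enzyme genes in the myeloid marker list, the groups did not overlap for Mpo and Elane and overlapped for Ctsg and Prtn3. Over all tested genes, the groups did not overlap for 22.3% with miR-125b higher and for 20.4% with it lower. Mpo, which encodes myeloperoxidase, measured 39.1 and 54.2 RPKM among the controls against 273 and 105.3 RPKM under miR-125b, a log2 fold change of 1.86 ± 0.44 (SE, limma adjusted p = 0.410), and Elane, the neutrophil elastase gene, one of 0.54 ± 0.27. Without miR-125b replicate 1, which moved both by over 1.5 times, the fold changes were 1.18 and 0.18. Without replicate 2 they were 2.54 and 0.91, and either fit leaves 1 miR-125b library. Ctsg, the cathepsin G gene, measured 375.1 and 673.7 RPKM among the controls against 547.2 and 419.2 RPKM under miR-125b, and Prtn3 319.2 and 758.5 RPKM against 498 and 364.3 RPKM. Of the 8 tested genes of the list, 6 had a fold change below 0, against 47.2% of all tested genes. The median log2 fold change of the 8 was -0.14, and 0.20 without control replicate 2.

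Control replicate 2 also differed from the other libraries in a pair of histone deacetylase genes that work with Gfi1. Hdac2 was at 61.0 RPKM there and at 103.5 RPKM in control replicate 1, 101.9 RPKM in miR-125b replicate 1 and 103.9 RPKM in miR-125b replicate 2, while Hdac1 was at 4.21 RPKM there and at 1.45, 1.41 and 1.34 RPKM in the same order. The interleukin-3 receptor alpha gene Il3ra was at 27.9 RPKM there and between 12.3 and 14.2 RPKM in the others. These differences between single libraries were not tested.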
